A study of Danio rerio with 32 samples.

Results

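The comparison described here sets the change in liver transcript levels after high dichlorvos (DDVP) exposure against the change after 50 h without food in zebrafish. It used 20 of the 32 arrays of the study and all 5481 probes of the deposited expression table. DDVP is an organophosphorus insecticide that inhibits acetylcholinesterase, and fish whose nerves and muscles are impaired may eat less. The comparison asks which changes in the liver of exposed fish differ from those between fish 50 h without food and recently fed fish.

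All fish were male Tübingen strain zebrafish of 6 to 9 months, and each array carried liver RNA pooled from several fish. The spread between arrays is therefore that between pools rather than between animals. The high DDVP group (4 arrays) spent 24 h in flow-through tanks at a labelled 32 mg/L, for which the methods give a slightly lower measured concentration. Its controls were 8 arrays in 2 sets of 4, handled alike without toxicant. DDVP and control fish were offered food before the exposure and a few hours into it. The fed fasting controls (4 arrays) took their last meal a few hours before harvest, and the other arm (4 arrays) had gone 50 h without food. The DDVP controls and the fed fasting controls thus differed in the time since food was last offered. Any response to the recent meal enters the fasting effect alone, and its part was not tested. A group labelled 24 h without food, for which the methods give a somewhat longer time, is cited for its levels and in an alternative fit.

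The liver takes up nutrients after a meal and stores them as glycogen and fat. During a fast it normally releases glucose, oxidises fatty acids and lowers the making of new fat. The same organ carries most of the enzymes that clear foreign compounds. Reactive compounds use up glutathione, the main small thiol of the cell, and fish and mammals answer through the transcription factor Nrf2, which raises glutathione synthesis, thioredoxin-type enzymes and enzymes that regenerate NADPH. Damaged proteins call up heat shock chaperones and the proteasome.

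For each probe, 3 quantities are given on the log2 scale. The DDVP effect is the mean of the high arrays minus the mean of the controls, the fasting effect is the mean at 50 h minus the mean of the fed arrays, and the difference is the DDVP effect minus the fasting effect. A value was called when its adjusted p was at most 0.001 and its size was at least 1.8-fold. Only these changes within each experiment were compared, because the authors had removed the offset between experiments from the table. As the table stands, each control set and the 24 h group have the same mean in every probe, within 0.0001, so the 8 control arrays were given the weight of 4 in each standard error. The DDVP arrays were scanned at low and high laser power and the fasting arrays on a different instrument, so arm and scanner cannot be told apart. The probes in the table had been chosen by the authors on these same arrays, and the share of probes called below carries that choice. The choice started from genes expressed in the DDVP analysis, so it was not even between the arms. Transcripts detected in the fasting arrays alone may be missing. Array medians lay between 9.52 and 9.78. The median SD within a group was between 0.207 and 0.235. In the fasting experiment, 5375 of the 5481 probes were well above background on all 12 arrays.

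Exposure to DDVP changed far more of these transcripts, and by larger amounts, than 50 h without food. The DDVP effect was called for 4065 probes (74.2%), of which 2150 rose (39.2%) and 1915 fell (34.9%). The fasting effect was called for 245 probes (4.47%), of which 174 rose (3.17%) and 71 fell (1.3%). The root mean square effect was 1.82 under DDVP and 0.557 after fasting, a ratio of 3.27. The change was larger under DDVP for 5009 probes (91.4%). With the spread estimated in each experiment separately, 54 probes were called for fasting, and within single slides of the fasting experiment 35 to 65. On the scanner's signal of the 12 fasting arrays alone, 16082 probes were tested and 3 were called, which were both probes of hamp and one without a symbol. None of the 10873 tested probes outside the table was called, while 2226 of them had an unadjusted p under 0.05. An adjusted p of at most 0.05 was reached by 965 of the tested probes, 391 of them outside the table. On that signal the root mean square fasting effect was 0.471 in the table and 0.433 outside it.

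The difference between the effects was called for 3810 probes (69.5%), higher under DDVP for 2162 (39.4%) and lower for 1648 (30.1%). It ranged from -6.08 to 9.49, with a median of 0.51 and a median standard error of 0.25. The DDVP effect had the same median of 0.51, while that of the fasting effect was -0.11. Of the called differences, 3320 (87.1%) lay on probes called for DDVP alone, 117 on probes called for fasting alone and 24 on probes called in both arms. The other 349 lay on probes called in neither arm, and in all 349 the effects had opposite signs. Where signs are the same, the difference is smaller than the larger effect, which would then mostly have been called itself. The opposite signs thus follow largely from the thresholds and are not evidence of opposed responses. The 4 high arrays lay outside the range of the 8 controls for 4898 probes (89.4%), and the 4 fasted arrays lay outside the range of the fed arrays for 1241 (22.6%).

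The hepatocyte markers of the table were abundant in every group, and most fell under DDVP. Only 4 of the 9 hepatocyte marker genes on the array are in the table, whose probes had been chosen on these same arrays. The markers left out have no DDVP value here. The 5 probes covered fgb and fgg (fibrinogen chains), cp (ceruloplasmin, the copper carrier of plasma) and apobb.1 (the scaffold of lipoprotein particles). Of these, 4 fell under DDVP, against 34.9% of all probes. None was called for fasting, near the 4.47% of all probes. The difference was called lower for 4, against 30.1% of all probes, with a median of -1.22. In such pooled tissue, fewer cells of a type and less RNA per cell cannot be told apart.

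The effects were weakly related across the probes. Their Pearson r was 0.112 and their Spearman rho 0.0753 over 5481 probes, which share arrays within each arm and are not independent replicates. From genes expressed in the DDVP analysis, the authors had kept these probes for change on the same arrays of both arms. The relation and the counts below carry that choice and are a description of the probes kept. Among the 174 probes that rose after fasting, 127 had a DDVP effect above 0, against 3067 (56.0%) of all probes, and their median DDVP effect was 0.29. Among the 71 that fell, 40 had a DDVP effect below 0, with a median of -0.23. Among the 4065 probes called for DDVP, the median size of the effect was 1.52 under DDVP and 0.23 after fasting.

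**Figure D1:**
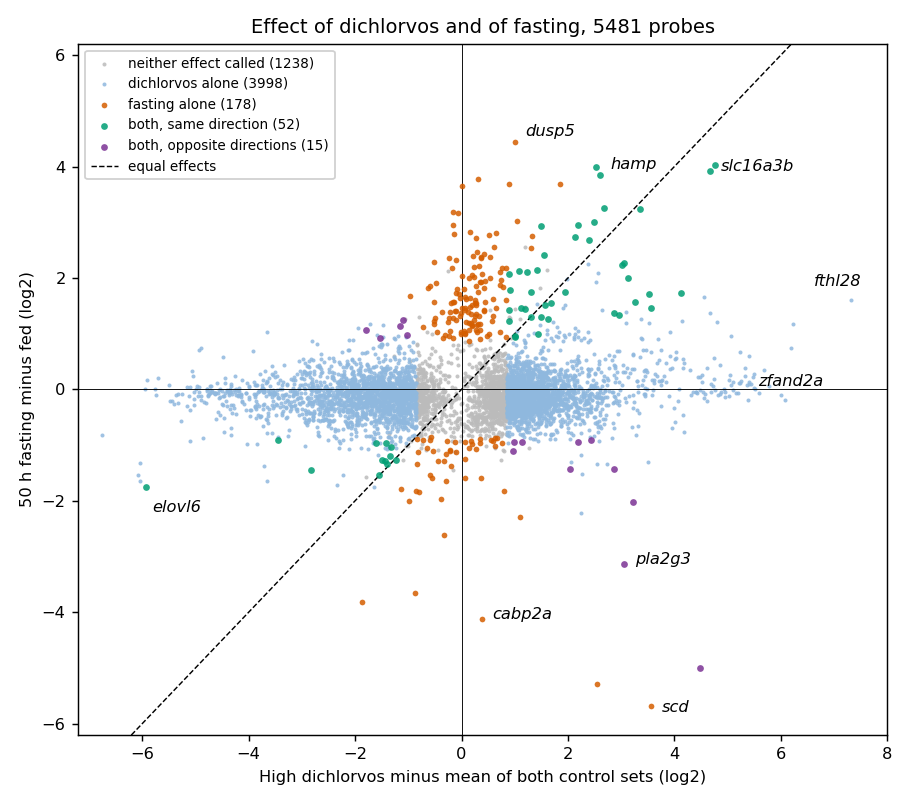
Fasting effect against DDVP effect (both log2) for the 5481 probes, each point a probe coloured by the arm in which it was called. The cloud is wide along the DDVP axis (root mean square 1.82) and narrow along the fasting axis (0.557), and few probes were called in both arms.

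The largest positive differences included genes that answer oxidants and damaged proteins. The leading genes in each direction were picked among called probes whose 4 high arrays lay outside the range of the 8 controls. That separation is thus part of the pick, and it held for 89.4% of all probes. The 4 high arrays of zfand2a, a zinc finger protein induced by arsenite and heat that binds the proteasome, read 14.61, 14.84, 14.78 and 14.64. Its controls had a lowest value of 8.28, a median of 8.66 and a highest of 9.02. The fed arrays read 8.62, 8.96, 8.60 and 8.69 and the fasted arrays 8.69, 8.29, 8.65 and 8.50. The high arrays thus stood far above the controls, whereas the fed and fasted arrays overlapped. The DDVP effect was a 67.2-fold rise, and the difference was 6.25 (95% interval 5.80 to 6.71, adjusted p = 9.47e-19).

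The ferritin heavy chain relative fthl28, of the family that stores iron, had the largest rise under DDVP in the table. Its high arrays read 13.92, 14.19, 13.92 and 13.75 against controls with a lowest, median and highest value of 5.61, 6.58 and 8.07. The fed arrays read 6.00, 5.03, 3.68 and 6.30 and the fasted arrays 7.09, 6.39, 6.93 and 7.01. All 4 fasted arrays lay above all 4 fed arrays, but the fasting effect of 1.6 was not called (adjusted p = 0.0374). The rise under DDVP was 7.32 and the difference 5.72 (95% interval 4.13 to 7.31, adjusted p = 1.88e-07). The relatives fthl31 and fthl27 rose by 4.55 and 3.26 under DDVP. Their fasting effects were 1.65, which was not called, and 1.57, which was.

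Other large positive differences had fasting effects below 1 on the log2 scale. That of pir (pirin, an iron-binding nuclear protein induced by Nrf2 in mammals) was 5.73 (95% interval 5.20 to 6.27), with a fasting effect of 0.05. That of prdx1 (peroxiredoxin 1, which reduces hydrogen peroxide) was 5.45 (95% interval 4.43 to 6.47), with a fasting effect of 0.74 that was not called. For acot9.2, a mitochondrial acyl-CoA thioesterase, the difference was 5.50, and for ino80db, a subunit of a chromatin remodelling complex, it was 5.10. Their fasting effects were 0.02 and -0.01.

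Among the largest negative differences was that of a regulator which the mammalian liver uses in fasting. The gene creb3l3a encodes CREBH, a transcription factor of the endoplasmic reticulum that in mice turns on fat oxidation during a fast. Its high arrays read 7.89, 6.67, 7.16 and 7.30 against controls with a lowest, median and highest value of 12.03, 12.30 and 12.56. The fed arrays read 10.89, 12.24, 12.17 and 11.52 and the fasted arrays 12.65, 11.78, 11.91 and 11.47. The high arrays were far below the controls and the fasted arrays overlapped the fed. The transcript fell by 5.05 under DDVP, and the difference was -5.29 (95% interval -6.07 to -4.51, adjusted p = 1.51e-12).

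The other leading negative differences had the same arrangement of groups, of which the separation under DDVP was required by the pick. The small GTPase rab11bb, which serves recycling endosomes, had high arrays at 9.17, 9.62, 9.27 and 10.04 against controls from 15.06 to 15.39. Its fed and fasted arrays overlapped between 14.80 and 15.33, and the difference was -5.63 (95% interval -6.57 to -4.69). The differences of ppp1r3ca (which brings a phosphatase to glycogen), cyp4v2a (a fatty acid hydroxylase) and atf7a (a transcription factor) were -5.27, -5.25 and -5.17. Those of akr1a1a (an aldehyde reductase), nr0b1 (an orphan nuclear receptor) and tmem120ab were -5.14, -5.0 and -4.98. The fasting effects of these 6 genes lay between -0.26 and 0.05, and none was called.

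**Figure D2:**
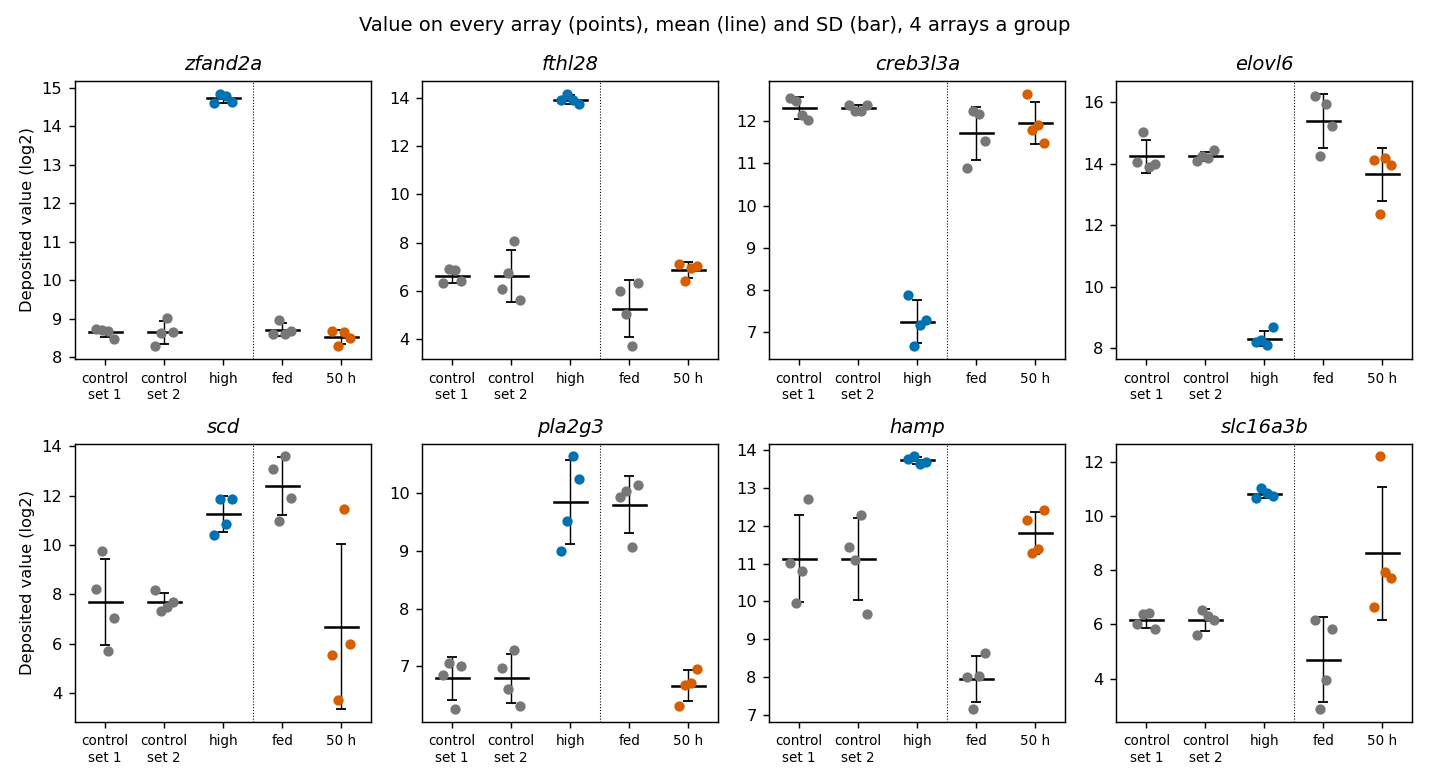
Log2 level on each array for 8 genes in the DDVP controls, the high DDVP group, the fed group and the group 50 h without food, with a line at each group mean and a bar of 1 SD. Levels are to be compared between the groups of 1 experiment. The zfand2a and creb3l3a arrays separate in the DDVP experiment, which their pick required, while their fed and fasted arrays overlap.

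Among genes with a symbol scd had the largest fitted difference, with effects of opposite sign in the arms. The message for scd, stearoyl-CoA desaturase, which puts the double bond into newly made fatty acids, read 13.08, 10.96, 13.59 and 11.89 on the fed arrays. On the fasted arrays it read 5.56, 3.74, 11.47 and 6.00, so that the third array lay within the fed range and the others far below it. In the high DDVP group it read 10.41, 11.85, 10.87 and 11.85, all above controls with a lowest, median and highest value of 5.70, 7.6 and 9.77. The probe was well above background on 4 of 4 fed arrays and on 1 of 4 fasted arrays, so the size of the fall and of the difference, intervals and rank included, rests on dim spots and is not exact.

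The fasting effect of scd was -5.69 (adjusted p = 8.54e-05). That call was lost with the spread estimated in each experiment separately (adjusted p = 0.0111), with normexp background correction (-3.24, adjusted p = 0.00133), within slide 1 (-7.52) and within slide 3 (-3.16, adjusted p = 0.358). Its DDVP effect was 3.56, for which the adjusted p of 0.00123 missed the threshold. The difference was 9.25 (95% interval 6.41 to 12.09, adjusted p = 9.08e-07). Without the third fasted array the difference was 10.84 and the fasting effect -7.28. A second probe of scd gave 2.55 under DDVP, -5.29 after fasting and a difference of 7.83. The largest difference of any probe belonged to A_15_P484590, which has no gene symbol here and was picked out after its values were seen. Its effects were 4.49 and -5.01 and its difference 9.49 (95% interval 6.72 to 12.3). Its fasted arrays read 6.58, 5.86, 11.49 and 6.36 against fed arrays of 11.27 to 13.57. As in scd, the third fasted array thus lay within the fed range.

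The gene pla2g3, a secreted phospholipase A2, was called in both arms in opposite directions. Its high arrays read 9.00, 9.52, 10.63 and 10.24 against controls with a lowest, median and highest value of 6.26, 6.91 and 7.28. Its fed arrays read 9.94, 10.04, 9.07 and 10.15 and its fasted arrays 6.31, 6.69, 6.71 and 6.96. Neither pair of groups overlapped. The rise under DDVP was 3.05, the fasting effect -3.13 and the difference 6.19 (95% interval 4.99 to 7.39, adjusted p = 3.2e-10).

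In all, 15 probes were called in both arms in opposite directions. Of these, 10 rose under DDVP and fell after fasting, and 5 did the reverse. These included both probes of tktb (transketolase, of the pentose phosphate pathway). The high arrays of its brighter probe read 14.43, 14.45, 14.56 and 14.73 above controls of 11.81 to 12.57, and its fasted arrays read 11.94, 11.94, 12.43 and 12.37 below fed arrays at 13.45, 13.19, 13.17 and 12.66. The effects were 2.18 and -0.95 and the difference 3.13. Opposite changes were also called for acp6 (a phosphatase of lysophosphatidic acid), at 0.99 and -0.95, and for ccdc51 (a protein of mitochondrial potassium channels in mammals), at 1.13 and -0.94. Among probes with a symbol, nr2f6b, an orphan nuclear receptor, was the one that fell under DDVP (-1.53) and rose after fasting (0.93). The fasting calls of tktb, acp6 and ccdc51 sat near the threshold. They were lost without 1 array for acp6 (fed replicate 3, -0.80), without each of 3 arrays for tktb (fed replicate 1 and fasted replicates 1 and 2, -0.87 to -0.83) and without each of 11 arrays for ccdc51, which included all 4 fed arrays (-0.98 to -0.79).

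A smaller group of 52 probes was called in both arms in the same direction, 40 upward and 12 downward. The difference was called for 6 of the 40 (15%) and 3 of the 12 (25%), against 69.5% of all probes. The classes were formed from the effects that make up the difference, so these shares are a description. The leading shared rises were those of slc16a3b, cldnb, hamp and atf3.

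The message for hamp, hepcidin, the liver hormone that lowers iron export, read 12.14, 11.29, 11.38 and 12.41 on the fasted arrays and 8.0, 7.16, 8.03 and 8.63 on the fed arrays. It read 13.77, 13.83, 13.64 and 13.67 in the high DDVP group, above controls with a lowest, median and highest value of 9.67, 11.06 and 12.71. Both pairs of groups were apart, although the 8 control arrays spread widely. The rises were 2.60 under DDVP (adjusted p = 6.07e-06) and 3.85 after fasting (adjusted p = 6.13e-07). The difference was -1.25 (95% interval -2.58 to 0.08, adjusted p = 0.0711) and was not called.

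The lactate carrier slc16a3b read 10.68, 11.02, 10.86 and 10.72 in the high DDVP group against controls of 5.61 to 6.54. Its fasted arrays read 6.64, 12.20, 7.95 and 7.70 and its fed arrays 6.18, 2.88, 3.94 and 5.82, of which 2 were well above background. The second fasted array stood apart from the rest. The rises were 4.67 and 3.92, and the difference of 0.74 (95% interval -1.30 to 2.79) was not called. Without the second fasted array the fasting effect was 2.73 and the difference 1.94, which was still not called (adjusted p = 0.00954). The fasting call was lost without fed replicate 2 or 3, where the effect was 3.31 and 3.66, and with normexp background correction (2.17). Within single slides the difference changed sign, at 4.21 in slide 1, -4.13 in slide 2 and 2.66 in slide 3. On each slide the fed group, the fasted group or both had 1 array. These values thus do not measure the spread between fasting pools.

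The tight junction protein cldnb rose by 3.35 and 3.24, with a difference of 0.12 (95% interval -1.54 to 1.78) whose sign changed with the array left out. Its fasting call was lost without fed replicate 2 or fasted replicate 1 (2.95 to 2.99). The call was also lost with the spread estimated in each experiment separately and within slides 1, 2 and 3 (2.82, 2.19 and 3.56). The stress-induced transcription factor atf3 rose by 2.49 and 3.0, with a difference of -0.51 (95% interval -1.92 to 0.91). The gene igfbp1b, whose protein binds insulin-like growth factors and which is raised by fasting in many vertebrates, rose by 3.13 and 2.00, with a difference of 1.13 that was not called. These intervals reach past a 1.8-fold difference (0.85 on the log2 scale), so equal responses were not shown.

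Among the shared falls, elovl6, which lengthens saturated fatty acids, fell much further under DDVP. Its high arrays read 8.19, 8.27, 8.11 and 8.68 against controls of 13.87 to 15.03. The fasted arrays read 14.10, 12.35, 14.19 and 13.94 and the fed arrays 16.20, 14.23, 15.92 and 15.21. Both pairs of groups were apart, and the second fasted array was the lowest of its group. The effects were -5.92 and -1.75 and the difference -4.18 (95% interval -5.24 to -3.11, adjusted p = 4.77e-08). The fasting call was near its threshold (adjusted p = 0.000974) and was lost without the second fasted array, where the effect was -1.31 (adjusted p = 0.00849). In all, leaving out each of 17 of the 20 arrays ended the call, the exceptions being the second replicate of control set 1, the second fed and the third fasted array. The effect lay between -1.90 and -1.31 in those 17 fits.

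Fasting alone was called for 178 probes, 129 upward and 49 downward. The difference was called lower for 91 of the 129 (70.5%) and higher for 26 of the 49 (53.1%), against 30.1% and 39.4% of all probes. The classes were formed from the fasting effect, which the difference subtracts. These directions therefore follow from the classes, and the shares are a description. The largest rise was that of dusp5, a phosphatase that switches off the kinase ERK. Its fasted arrays read 8.83, 8.17, 8.39 and 10.11 and its fed arrays 4.36, 3.94, 4.26 and 5.17. In the DDVP experiment the high arrays read 9.48, 9.04, 9.87 and 9.13 and the controls had a lowest, median and highest value of 7.52, 8.29 and 9.44, so these groups overlapped. The fasting effect was 4.44, the DDVP effect 1.00 (adjusted p = 0.11) and the difference -3.44 (95% interval -5.17 to -1.70, adjusted p = 0.000506). The call on the difference sat near the threshold and was lost without each of 8 arrays (high replicates 2 and 4, the third replicate of each control set, fed replicates 1, 2 and 3 and fasted replicate 4). The value lay between -3.41 and -3.03 in those 8 fits. That call was also lost without variance moderation, with the scanner's median signal (-2.92) and with normexp background correction (-2.58). Within slides 1, 2 and 3 the difference was -3.46, -3.07 and -3.07 and was not called. The fasting call was lost with the spread estimated in each experiment separately and within each slide (4.07 to 4.47).

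The receptor s1pr1, which senses sphingosine 1-phosphate, rose by 3.69 after fasting. Its fasted arrays read 10.09, 8.51, 9.72 and 10.45 and its fed arrays 5.63, 6.02, 6.00 and 6.34. Its DDVP effect of 0.89 was not called, and the difference was -2.81 (95% interval -3.94 to -1.67, adjusted p = 4.07e-05). Within slide 2 the difference was -1.61 and was not called. For phlda2, a small lipid-binding protein, the fasting effect was 3.68 and the difference of -1.83 was not called. Its fasting call was lost without each of 5 arrays (fed replicates 1, 2 and 3 and fasted replicates 3 and 4), at 3.47 to 3.66.

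Of the fasting falls, cabp2a, a calcium-binding protein related to calmodulin, read 9.40, 9.69, 11.91 and 10.98 on the fed arrays and 8.88, 4.59, 6.16 and 5.86 on the fasted arrays. The first fasted array lay close to the fed arrays and the other 3 were far lower. The fasting effect was -4.12, the DDVP effect 0.38 and the difference 4.50 (adjusted p = 2.84e-05). Within the slide that held the first fasted array, the difference was 0.90 and was not called. For pcolce2b, which helps trim procollagen, the fasting effect was -3.83, the DDVP effect -1.87 and the difference of 1.96 was not called (adjusted p = 0.0178). For rh50, of the Rh family of ammonia channels, the effects were -1.14 under DDVP and -1.78 after fasting, the latter call being lost without each of 5 arrays (fed replicates 3 and 4 and fasted replicates 1, 2 and 4), at -1.77 to -1.65. For si:ch73-359m17.2 they were -0.80 and -1.85.

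Several transcripts that changed after 50 h stood at similar levels after the shorter fast. The group labelled 24 h without food, which shares the fed arrays with the 50 h comparison, had means of 8.38 for dusp5, 9.25 for s1pr1, 11.13 for hamp and 7.68 for scd. The means at 50 h were 8.87, 9.69, 11.80 and 6.69 and those of the fed arrays 4.43, 6.00, 7.95 and 12.38, so both fasted groups lay on the same side of the fed arrays. These genes are examples. With the 24 h group in place of 50 h, 136 of the 245 fasting calls were shared. The fasting effect was then smaller and not called for slc16a3b (1.45), cabp2a (-2.61), cldnb (2.52) and elovl6 (-1.16). In si:ch73-359m17.2 the 24 h mean of 8.99 was above the fed mean of 8.19, and the 50 h mean of 6.35 was below it.

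**Figure D3:**
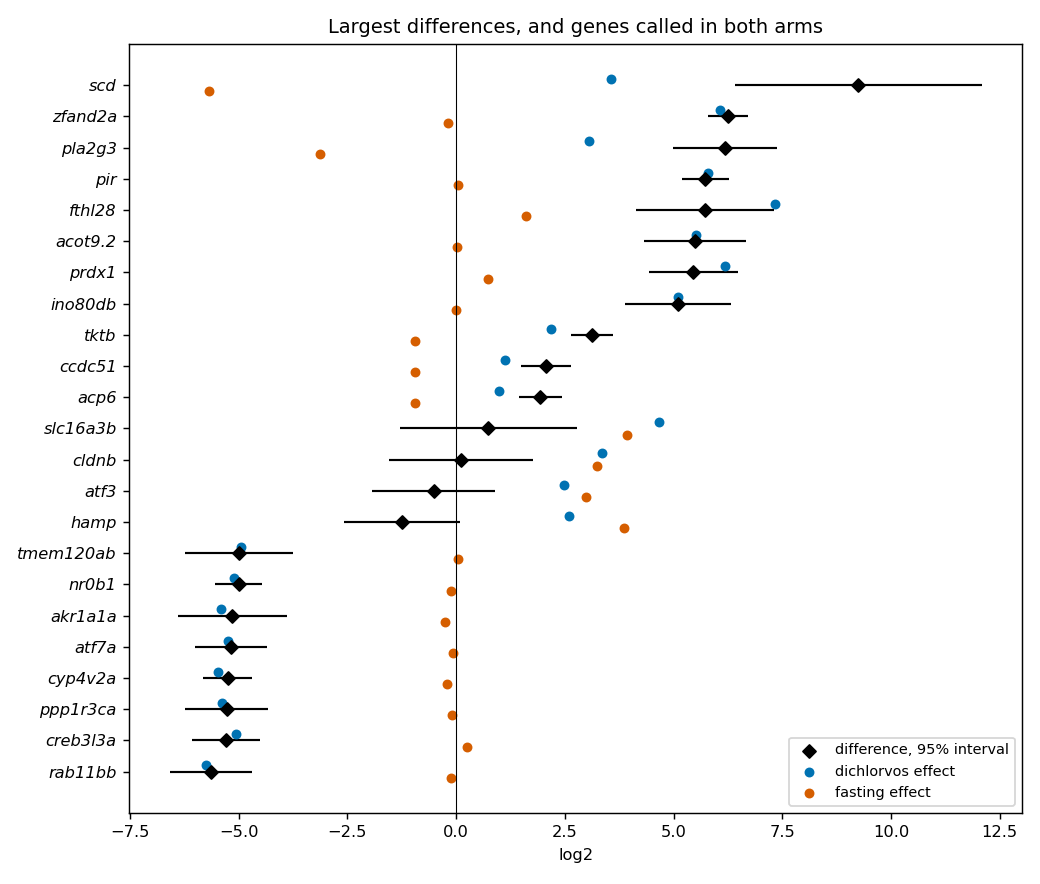
Difference of the effects (DDVP minus fasting, log2) with its 95% interval for 23 genes, and beside it the DDVP and fasting effects of each gene. Intervals that cross 0, as for slc16a3b, hamp, cldnb and atf3, belong to genes that rose in both arms.

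Markers of other cells in the tissue differed between the fed and fasted arrays in different directions. All 24 probes for exocrine pancreas markers were lower after 50 h on the scanner's signal, with a median of -1.64 and a range of -2.74 to -0.13. Of these, 12 had an unadjusted p under 0.05, 1 had an adjusted p of at most 0.05 and none was called. Over all 16082 tested probes, 3881 and 965 reached these limits. Their summed signal was 795521 to 1494540 on the fed arrays and 226912 to 1611920 at 50 h, so the groups overlapped. In the group labelled 24 h it was 234038 to 668615, below the fed arrays. All 8 probes for leukocyte markers were higher, with a median of 1.03. Their summed signal was 13210 to 27201 on the fed arrays, 17575 to 44347 in the 24 h group and 26995 to 53079 at 50 h. Of the 8, 7 had an unadjusted p under 0.05 and 1 reached an adjusted p of 0.05. Of 7 erythrocyte probes, 6 were lower and 1 higher, with a median of -0.26, and the single egg protein probe had an effect of -1.12. Neither list reached an adjusted p of 0.05, and of both only the egg protein probe had an unadjusted p under 0.05. None of these probes is in the deposited table, so the DDVP arm has no value for them here, and their part in the fasting effects was not tested.

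Glutathione genes were called in both directions under DDVP. Over the list of 28 probes for 19 genes, 15 rose and 10 fell under DDVP, none was called for fasting, and the difference was called higher for 16 and lower for 10. The median difference was 1.08, against 0.51 over all probes, of which 39.2% rose and 34.9% fell under DDVP. For fasting 4.47% of all probes were called, so no call in a list of this size is near that share. Lists below without a fasting call are to be read against the same share. All 4 probes of gsr (glutathione reductase) rose under DDVP, and its brightest probe read 14.08, 14.13, 14.11 and 14.33 against controls of 8.40 to 9.38. The fed arrays of that probe read 8.91, 8.52, 8.24 and 8.84 and the fasted arrays 9.10, 9.38, 9.55 and 8.89, a fasting effect of 0.60 (adjusted p = 0.0582) and a difference of 4.80. Differences were 4.78 for gclc and 4.42 for gclm, the subunits of the enzyme that starts glutathione synthesis. Several transferases and peroxidases went the other way, such as gstt2 (-2.56), gstm.1 (-2.26), gstk1 (-2.23) and gpx4a (-1.54).

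Thioredoxin-type enzymes and other Nrf2 targets also had calls of both signs. Of 24 probes, 11 rose and 8 fell under DDVP, near the 39.2% and 34.9% over all probes, the one call for fasting was the rise of fthl27, and the difference was called higher for 11 and lower for 8. Besides prdx1 and pir, the difference was 3.72 for txnl1 (a thioredoxin-like protein), 3.22 and 3.27 for the probes of txnrd3 (a thioredoxin reductase) and 2.79 for maff (a small partner of Nrf2). It was -2.75 for cat, catalase, whose high arrays read 12.80, 12.64, 12.44 and 12.77 against controls of 15.23 to 15.73. Its fed and fasted arrays overlapped between 15.34 and 15.82. Differences were also lower for prdx4 (-2.23) and sod1 (-1.23).

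In the pentose phosphate pathway, a source of NADPH, differences of both signs were called. The high arrays of pgd, which makes NADPH from 6-phosphogluconate, read 14.74, 15.06, 14.78 and 14.86 against controls of 9.25 to 10.35. Its fed and fasted arrays overlapped, and the difference was 4.93 (95% interval 4.12 to 5.73). The difference was 2.02 for taldo1 (transaldolase) and 2.77 for dera (which splits deoxyribose phosphate), and -2.58 and -2.35 for the probes of rbks (ribokinase) and -3.47 for prpsap1 (which binds the enzyme that makes phosphoribosyl pyrophosphate). Over 12 probes, 6 rose and 4 fell under DDVP, against 39.2% and 34.9% of all probes, and the 2 called for fasting were the falls of tktb.

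Most fatty acid oxidation probes of the table fell under DDVP, with a single call after 50 h without food. The table holds 20 of 25 mitochondrial genes of this kind on the array. In the mitochondrial pathway, 24 of 27 probes fell under DDVP and none rose, against 34.9% and 39.2% of all probes. For fasting 1 was called, the fall of 1 of 3 probes of acad9 (-1.19), where 4.47% of all probes were called. The difference was called lower for 22 and higher for 1, against 30.1% and 39.4% of all probes, with a median of -2.46. Of hadhaa, a subunit of the trifunctional enzyme of the pathway, the high arrays read 8.25, 8.02, 7.80 and 7.73 against controls of 11.27 to 11.97. Its fed arrays read 11.28, 11.71, 11.91 and 11.47 and its fasted arrays 11.77, 11.43, 11.36 and 11.78, which overlap, and the difference was -3.73 (95% interval -4.25 to -3.21). Differences were -4.67 for decr1 (which handles unsaturated chains), -3.91 for acads (for short chains), -3.58 for cpt2 (which hands fatty acids over inside the mitochondrion) and -3.15 for acadvl (for very long chains). The one higher call was acad8 (1.29), an enzyme of valine breakdown, whose DDVP effect of 0.69 and fasting effect of -0.61 were not called.

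Peroxisomes, which shorten very long and branched fatty acids, showed the same pattern. All 16 probes, for 13 of the 17 genes on the array, fell under DDVP, against 34.9% of all probes. None was called for fasting, against 4.47% of all probes. The difference was called lower for 14, against 30.1% of all probes, with a median of -2.06. The high arrays of crot, which passes shortened chains on to mitochondria, read 6.52, 6.37, 6.27 and 6.94 against controls of 11.29 to 11.78. Its fed and fasted arrays overlapped, and the difference was -4.97 (95% interval -5.72 to -4.22). The difference was -3.78 for hsd17b4 and -2.46 for ehhadh, enzymes of the middle steps of the cycle.

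Fatty acid synthesis and chain elongation was the list with the most fasting calls. Of 21 probes, for 14 of the 22 genes on the array, 1 rose and 11 fell under DDVP, while 1 rose and 7 fell after fasting. Over all probes, 39.2% rose and 34.9% fell under DDVP, and 3.17% rose and 1.3% fell after fasting. Median effects were -1.38 under DDVP and -0.81 after fasting. The difference was called higher for 5 and lower for 10, against 39.4% and 30.1% of all probes. Besides scd and elovl6, the 3 probes of mid1ip1b (which activates acetyl-CoA carboxylase) fell by 1.26 to 1.29 after fasting. Under DDVP 2 of those probes fell by 1.49 and 1.44 and the other had an effect of -0.43, and no difference was called. The elongase elovl5, which acts on polyunsaturated chains, fell under DDVP with effects of -2.19 and -2.06, and its fasting effects of -0.09 were not called. The reductase hsd17b12a of the elongation cycle rose by 5.23 under DDVP, with a fasting effect of 0.68 and a difference of 4.55.

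Only 3 of 23 cholesterol synthesis genes on the array are in the table. The 3 probes of acat2, which joins acetyl-CoA units, had DDVP effects of 2.27 to 2.74, fasting effects of -1.52 to -1.34 that were not called and differences of 3.78 to 4.09 that were. On the brightest probe the high arrays read 13.82, 13.78, 13.52 and 14.07 against controls of 10.15 to 12.40. The fed arrays read 13.99, 12.05, 11.28 and 11.97 and the fasted arrays 11.07, 10.98, 11.20 and 10.64, so that no fasted array reached a fed one. The differences of tm7sf2 and nsdhl (-1.82 and -0.50), which act later in the pathway, were not called.

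Glycogen and glucose enzymes included large differences of both signs. Of 12 glycogen probes, 3 rose and 8 fell under DDVP, against 39.2% and 34.9% of all probes. None was called for fasting, against 4.47% of all probes. The difference was called higher for 2 and lower for 6, against 39.4% and 30.1% of all probes. The differences of ppp1r3b and pgm1, which promote glycogen synthesis and interconvert glucose phosphates, were -4.72 and -1.54. That of phkg2, the catalytic subunit of phosphorylase kinase, was 3.09. Of 22 probes for glycolysis and gluconeogenesis, 7 rose and 8 fell under DDVP, near the share over all probes (39.2% up and 34.9% down). Both probes of fbp1a (fructose bisphosphatase) and of ldhba (lactate dehydrogenase) gave differences of 2.16 to 2.81, and slc2a2 (the liver glucose carrier) gave -2.45 on one probe and -0.96, not called, on the other. The one fasting call of the list was the fall of pklr, the liver pyruvate kinase, at -1.11.

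The citric acid cycle and respiratory chain lists had differences of smaller range. Of 10 citric acid cycle probes, 5 rose and 2 fell under DDVP, close in total to the 74.2% called over all probes. Differences were 1.55 and 1.70 for sdhc and -1.66 for idh2. Of 19 respiratory chain probes, 5 rose and 1 fell, a smaller share than that 74.2%. The difference ranged from -1.35 (cox5b2) to 1.76 (cox6a1), both subunits of cytochrome oxidase. The call on cox5b2 was lost without each of 13 arrays, among them all 4 fed arrays, at -1.37 to -1.05. Neither list had a fasting call, against 4.47% of all probes.

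**Figure D4:**
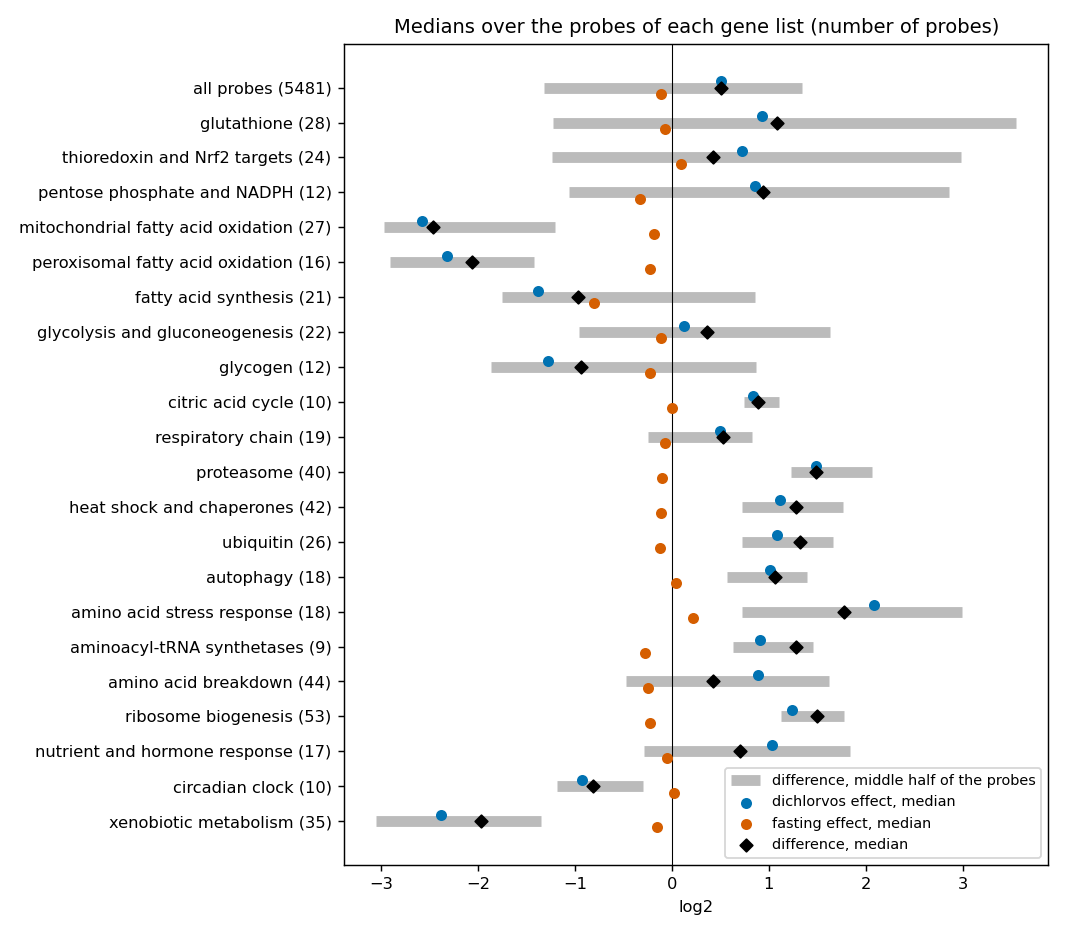
Median DDVP effect, median fasting effect and median difference (log2) of the probes of each gene list with at least 9 probes, with a grey bar from the first to the third quartile of the difference. Fasting medians lie close to 0 in most of these lists, with fatty acid synthesis the lowest shown at -0.81, while the DDVP medians shown spread from -2.58 to 2.09.

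Nearly all proteasome probes of the table rose under DDVP. The table holds 34 of the 48 proteasome genes on the array. Of 40 probes, 38 rose and 1 fell, against 39.2% and 34.9% of all probes. None was called for fasting, against 4.47% of all probes. The difference was called higher for 36 and lower for 1, against 39.4% and 30.1% of all probes, with a median of 1.48. The high arrays of psmc3, an ATPase subunit of the proteasome cap, read 13.79, 13.97, 14.38 and 14.16 against controls of 10.96 to 11.78. Its fed arrays read 11.86, 11.62, 11.90 and 12.10 and its fasted arrays 11.35, 11.45, 11.67 and 11.62, a fasting effect of -0.35 (adjusted p = 0.159) and a difference of 2.98. The one fall was that of psmb9a, a subunit of the immune form of the proteasome, with a difference of -1.95.

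Most table probes for chaperones and for the ubiquitin enzymes that mark proteins for the proteasome also rose. The table holds 32 of 84 chaperone genes and 21 of 56 ubiquitin genes on the array. Of 42 heat shock and chaperone probes, 28 rose and 3 fell under DDVP, and the difference was called higher for 29 and lower for 1. It was 3.69 for hspa4a (a nucleotide exchange partner of Hsp70) and 3.60 for hsp70l (a stress-inducible Hsp70), which had the largest fasting effect of the list, 1.21, not called. Of 26 ubiquitin probes, 16 rose and 2 fell, with differences from -1.86 (ube2e3) to 2.87 (ube2al), both conjugating enzymes. Of 18 autophagy probes, 11 rose and 1 fell, where 39.2% rose and 34.9% fell over all probes. Differences were 2.88 for atg4b (a protease that processes the membrane tag of autophagosomes), 1.07 and 1.27 for map1lc3b (that tag) and -1.45 for wdr45b. No probe of these 3 lists was called for fasting, against 4.47% of all probes.

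Most table probes for the response to amino acid shortage rose under DDVP. The table holds 11 of the 19 genes of this list on the array. Of 18 probes, 15 rose and 2 fell, against 39.2% and 34.9% of all probes, and the one fasting call was the rise of atf3. On the scanner's signal of the fasting arrays, 16 of 23 probes of this list were above 0 at 50 h, with a median of 0.12. Of the 23, 14 had an unadjusted p under 0.05 and 6 an adjusted p of at most 0.05. Over all 16082 tested probes these counts were 3881 and 965. Differences were 3.04 for trib3 (a pseudokinase induced by Atf4), 3.14 to 3.61 for slc3a2b (a partner of amino acid carriers) and 1.62 for atf4a. The one called lower was sesn3 (-2.41), a sestrin. The 2 probes of asns, asparagine synthetase, gave DDVP effects of -1.23 and -0.20 and no called difference. Of 9 probes for aminoacyl-tRNA synthetases, 5 were called higher and 1 lower for the difference, near the 69.5% called over all probes. The lower one was aars1 (-0.97).

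Amino acid breakdown was divided. Of 44 probes, 24 rose and 11 fell under DDVP, against 39.2% and 34.9% of all probes. The difference was called higher for 20 and lower for 6, against 39.4% and 30.1% of all probes. It was 4.10 for got1 (which moves amino groups onto oxaloacetate), 3.14 for cth (which makes cysteine) and 2.84 for bcat1 (which starts the breakdown of branched-chain amino acids). It was -2.61 for hibadha (of valine breakdown). One probe of gatm, the first enzyme of creatine synthesis, gave -4.71, and the other gave -2.02, which was not called. The glutaminase gls2b had effects of the same sign in both arms, with DDVP effects of 1.47 to 1.91, fasting effects of 1.15 to 1.51 and no called difference. One of its 3 fasting effects, 1.51, was called.

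Most ribosome assembly probes of the table rose under DDVP, with a median fasting effect slightly below 0. Of 53 probes, for 40 of the 53 genes on the array, 42 rose and 2 fell under DDVP, against 39.2% and 34.9% of all probes. None was called for fasting, against 4.47% of all probes. The difference was called higher for 43 and lower for 2, against 39.4% and 30.1% of all probes. The median effects were 1.24 and -0.23 and the median difference 1.5. The high arrays of polr1c, a subunit of RNA polymerases I and III, read 11.76, 11.92, 11.65 and 11.96 against controls of 9.16 to 9.57, with a difference of 2.53. The 2 probes of utp18, of the complex that processes the small subunit RNA, disagreed at -2.39 and 1.14. Of the ribosomal proteins, 2 of 75 on the array are in the table.

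Growth and feeding signals were called in both directions. Of 17 probes of the nutrient and hormone list, 9 rose and 4 fell under DDVP, close in total to the 74.2% called over all probes, and the one called for fasting was igfbp1b. The growth factor igf2a had high arrays at 9.59, 9.23, 9.27 and 9.46 against controls of 12.64 to 13.26, and its fed and fasted arrays overlapped between 12.68 and 13.81. Its difference was -3.83, and those of igf1 were -2.06 and -1.5. The differences of lpin1a, a phosphatase of triglyceride synthesis, were 3.97 and 4.65, and those of irs2a, which relays the insulin signal, were 2.83 and 3.23. Of 10 clock probes, 2 rose and 5 fell under DDVP, close in total to the same 74.2%. Among these were nr1d1 and bhlhe40, repressors of the clock, with differences of -1.52 and -2.26.

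Most table probes for enzymes that clear foreign compounds fell under DDVP. The table holds 23 of the 55 genes of this list on the array, and its probes were chosen on these same arrays. Of 35 probes, 32 fell and 2 rose under DDVP, against 34.9% and 39.2% of all probes. None was called for fasting, against 4.47% of all probes. The difference was called lower for 30 and higher for 1, against 30.1% and 39.4% of all probes, with a median of -1.96. The high arrays of cyp2ad2, a cytochrome P450, read 10.25, 10.31, 9.01 and 9.60 against controls of 13.73 to 14.38, and its fed and fasted arrays overlapped between 13.81 and 14.55. Its difference was -4.08. The 3 probes of cyp1a, the P450 induced by aryl hydrocarbons, gave -3.80, -3.74 and -3.21, and 3 of ephx1, an epoxide hydrolase, gave -3.61 to -2.20. The one higher call was ugt5a1, a glucuronosyltransferase, at 2.73.

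The study had also chosen 13 array probes for measurement by a second assay, whose values were not used here. They were picked on these same arrays for a strong DDVP effect and a small fasting effect, so their calls are fixed by that choice and are given as a description. Of the 10 in the table, all were called for the difference and none for fasting. Those that fell were hadhaa and echs1 (-1.37) of the fatty acid pathway, ephx1 (-3.51) and calm3a (-1.08). Those that rose included gsr (4.10), atg4b (2.88), ldhba (2.31) and lpla (0.98).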

How the data were processed

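Liver RNA was labelled and hybridised to 1-colour zebrafish arrays. The deposited table holds log2 values that the authors normalised, cleared of batch offsets and filtered in Partek at a false discovery rate of 0.001 without a fold filter. For the fasting arrays the table follows the processed signal of Agilent Feature Extraction (SD of the difference 0.00191), whose median spot intensity the authors also deposited. That intensity served the checks of the fasting arm, after quantile normalization. The table's log2 values of all 32 arrays were fitted with limma 3.58.1 in R 4.3.3 (lmFit and eBayes, Benjamini-Hochberg over 5481 probes), with python 3.11.15 for summaries. The code was checked on simulated data. Replicates are pools with separate labels.

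Symbols came from RefSeq accessions (3295 probes, 2581 symbols). Named were the 8 largest differences in each direction among called probes whose 4 high arrays lay outside the range of the 8 controls. Also named were the 6 largest called fasting rises and falls and the 4 largest shared and opposite changes. The extremes of each gene list, members that show its range and the probes of the second assay were added. The brightest probe of a gene led. Members and lists were chosen with earlier results of these data known, and 2 entries were removed from lists after values were seen because their symbols matched by mistake. Lists are described by counts and medians, without a test. Alternatives covered the fold filter, control sets, arrays fitted, spread, centring, slide, background correction, the 24 h group and leaving out each array. On each slide the fed group, the 50 h group or both had 1 array. Calls within a slide thus do not measure the spread between fasting pools. Replicate numbers did not pair the arrays.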

Additional observations from a re-analysis of the deposited data

Results flagged for a closer look

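Among the named probes, 13 of 332 groups of values (3.92%) had an array far from the others, in 12 genes. Chance would mark about 1 in 20 groups. The second fasted array was low for elovl6 (12.4, nearest other 13.9), acad8 (10.96, nearest 11.4) and rpl7l1 (11.5, nearest 11.8) and high for idh2 (14.8, nearest 13.3). The third fasted array was high for yars1 (10.4, nearest 9.87), rab1ab (10.02, nearest 9.81) and one acat2 probe (7.42, nearest 6.90). The first fasted array was high for lpin1a (10.8, nearest 9.87). Among fed arrays, the third was high for cat (15.8, nearest 15.5) and the first low for ube2e3 (10.9, nearest 11.1). In the DDVP experiment, the third array of control set 1 was low for tktb (11.8, nearest 12.2), the second high array was low for ldhba (12.3, nearest 12.7) and the third was low for the same acat2 probe (8.90, nearest 9.34).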

How the results depend on the processing

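The 3810 called differences lay between 3658 and 3790 when 1 array was left out, were 3795 with a replicate block within each experiment and 3787 with slide as a block, and fell to 2044 within slide 1 and 2211 within slide 3, where fewer arrays enter. The replicate block gave 4060 calls for DDVP and 249 for fasting and changed no call of a named result. Replicate numbers correlated at -0.107 to 0.181 in their deviations and so do not pair arrays. DDVP calls were 3964 to 4114 and fasting calls 208 to 269 over the arrays left out. The 245 fasting calls became 54 with the spread estimated in each experiment (44 up, 10 down), 59, 65 and 35 within slides 1, 2 and 3, and 103 with normexp background correction (84 up, 19 down). Calls in both arms in the same direction (52) became 14 with the separate spread, 8, 18 and 6 within the slides and 28 with normexp, and 37 to 65 over the arrays left out. Calls for fasting alone (178) became 39, 44, 43 and 28 in the first 4 of these settings and 70 with normexp, and 158 to 187 over the arrays left out, when calls for DDVP alone were 3903 to 4049. Opposite calls (15) were 37 without a fold filter, 8 at 2-fold, 9 with only the 20 arrays or without variance moderation, 1 with the separate spread, 7, 4 and 1 within the slides, 5 with normexp and 33 with the 24 h group in place of 50 h. They were 8 to 25 over the arrays left out, with 8 without fed replicate 1 or fasted replicate 1 and 25 without fasted replicate 3. Centring each array on its median moved the median difference by -0.092.

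Of 6536 recomputed values of named results, 6295 kept their direction and side of the threshold. These were 2724 of 2736 values of DDVP effects, 3063 of 3154 of differences and only 508 of 646 of fasting effects. The difference reversed for cldnb within slide 3 (-0.21) and over the arrays left out (-0.45 to 0.41, at -0.29 without high replicate 3, -0.04 without replicate 4 of control set 1, -0.27 without fed replicate 1 and -0.45 without fasted replicate 2). It reversed for slc16a3b within slide 2 (-4.13) and for rps28 within slide 2 (0.086). With the 24 h group, si:ch73-359m17.2 gave a difference of -1.59 and a fasting effect of 0.80. The cause of these changes was not tested. Signal limits scd and slc16a3b, which were not well above background on every fasting array.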

Other observations

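Pairs of probes with different symbols tracked each other array by array. The high arrays read 9.17, 9.62, 9.27 and 10.04 for rab11bb and 9.22, 9.71, 9.38 and 10.22 for atf7a, and the fasted arrays read 15.31, 14.80, 14.85 and 15.25 for the former and 14.87, 14.48, 14.73 and 14.97 for the latter. For acot9.2 and ino80db the fasted arrays read 9.96, 7.97, 8.36 and 8.89 and 9.67, 7.86, 8.16 and 8.83. These pairs were picked out after their values were seen, and whether the probes of a pair detect separate transcripts was not tested.

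In the fasting experiment, 28 of 29 probes of cell cycle genes were higher after 50 h on the scanner's signal, with a median of 0.78. None reached an adjusted p of 0.05, and 21 had an unadjusted p under 0.05. Of all 16082 tested probes, 965 and 3881 did so. The summed signal of the cell cycle probes was 4632 to 15560 on the fed arrays and 14794 to 18622 at 50 h, so the groups overlapped. None of these cell cycle probes is in the deposited table. Of 32 cholesterol synthesis probes on the array, 26 were lower after 50 h, with a median of -0.33.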
